A study of Homo sapiens with 12 samples.

Results

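AC16 cells that had gone through an entire repeat regimen of interferon alpha-2a were compared with vehicle cells, using the 3 repeat and the 3 vehicle libraries among the 12 RNA sequencing libraries of the study. All genes of the count table were the material, and 18119 of its 60649 gene identifiers passed the filter on low counts. AC16 is a human cell line described as resembling ventricular cardiomyocytes, and every library is labelled wild type (WT) and batch 1. Vehicle cells received phosphate-buffered saline (PBS) and are labelled 24 h. Repeat cells received 1000 U/mL interferon for 24 h, a hold of 4 days without it, and the same dose for another 24 h. The other 6 libraries served as points on the way, namely 3 of acute cells, taken after 24 h at 1000 U/mL, and 3 of recovery cells, taken after such a pulse and a hold of 5 days. The repeat libraries are labelled as harvested on day 7, although the stated times add to 6 days, and those of recovery on day 6. No vehicle library carries a later time than 24 h, so the regimen and the longer time in culture cannot be told apart in this comparison. The sources also give 2 culture media, DMEM/F-12 in the design text and RPMI 1640 in the growth protocol. Replicates are described as independent biological ones, in cultures of a single line.

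Libraries held 43775664 to 56680875 estimated counts in vehicle and 48769264 to 62281900 in repeat, and 39941319 to 62281900 over all 12. Replicates of vehicle differed by 1.81 to 2.15 times the Poisson expectation (median squared difference over genes) and those of repeat by 2.53 to 2.99 times. The first principal component held 40% of the variance of log CPM (counts-per-million of the library, scaled with TMM factors), with vehicle between -36.5 and -32.1 and repeat between 30.7 and 31.9. Cardiac identity was thin in these cells: only 10 of 26 cardiomyocyte markers passed the filter, TNNI1, MYL7 and MYBPC3 were at 0 in all 6 libraries, and TNNT2, the cardiac troponin T gene, had 0.245, 0.0679 and 0.0650 CPM in vehicle and 0.0184, 0.0162 and 0.0206 CPM in repeat. Fibroblast markers were all measured, 14 of 14, with a summed level of 13450 to 13930 CPM in vehicle.

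Interferon alpha binds the receptor pair IFNAR1 and IFNAR2, whose kinases TYK2 and JAK1 phosphorylate STAT proteins. With IRF9 these form a transcription factor that binds interferon-stimulated response elements in promoters and switches on antiviral, antigen-presenting and feedback genes. USP18 and SOCS1 limit the signal at the receptor, and cells can stay in a changed state after the cytokine is gone. In heart tissue, long exposure to type I interferon is known from autoimmune and viral disease.

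The promoter sequences of genes with the largest rises were searched for the letters this pathway reads. RefSeq promoter windows (GRCh38.p14, 250 bases before to 50 after the start site) were found for 13 of the 18 genes that led the rises by fold or by CPM. The other 5 had no window. Of the 13, 8 held the core of the interferon-stimulated response element (GAAA, any 2 bases, GAAA) on either strand. It occurred in 2.93% of the 11825 windows of all tested genes. The 8 stretches below are 30 bases each, 5′ to 3′ on the strand that holds the match, with the match in capitals.
IFI44L, chr1:78620365-78620394, plus strand: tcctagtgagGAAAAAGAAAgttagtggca
BST2, chr19:17405735-17405764, minus strand: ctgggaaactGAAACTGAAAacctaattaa
IFI27, chr14:94110631-94110660, plus strand: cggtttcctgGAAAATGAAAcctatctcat
MX1, chr21:41420559-41420588, plus strand: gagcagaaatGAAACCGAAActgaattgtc
IFITM1, chr11:314024-314053, plus strand: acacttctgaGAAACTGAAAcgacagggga
IFI6, chr1:27672266-27672295, minus strand: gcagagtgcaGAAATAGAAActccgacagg
OAS3, chr12:112938452-112938481, plus strand: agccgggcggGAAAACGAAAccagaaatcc
B2M, chr15:44711369-44711398, plus strand: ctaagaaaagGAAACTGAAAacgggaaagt
OAS1, CMPK2, RSAD2, VIM and HLA-B did not have these letters in their windows. IFI6 had 3 matches, and all 3 lie in the 250 bases before its start site, again with the matches in capitals.
IFI6, chr1:27672193-27672442, minus strand: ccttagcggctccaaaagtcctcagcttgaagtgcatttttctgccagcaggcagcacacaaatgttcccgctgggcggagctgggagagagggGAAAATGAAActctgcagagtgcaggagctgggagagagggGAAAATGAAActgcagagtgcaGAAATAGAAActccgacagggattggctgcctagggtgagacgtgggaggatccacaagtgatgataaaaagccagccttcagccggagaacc

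With TMM scaling, similar numbers of genes were higher and lower in repeat than in vehicle. A call is an adjusted p under 0.05 in edgeR's quasi-likelihood test. Of the 18119 genes, 8391 (46.3%) were called, 4244 higher (23.4%) and 4147 lower (22.9%) in repeat than in vehicle. The split depends on the scaling, with 3814 higher and 4541 lower on library totals only. Under upper quartile scaling it was 3743 higher and 4633 lower. Most of the differences called with TMM scaling were small. The median size was 0.26 on the log2 scale among called genes (range 0.05 to 9.70), and the median over all genes tested was 0.0018. A change of at least 2-fold was reached by 675 genes (3.73%), 425 of them higher (2.35%) and 250 lower (1.38%). Tested directly against a 1.5-fold change, 666 genes (3.68%) lay beyond it, 418 higher (2.31%) and 248 lower (1.37%). The number of calls depends on the deposited table used. The same comparison on log2(TPM + 0.5) called 4663 genes. Of the 675 genes changed at least 2-fold, 77% were called there in the same direction.

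**Figure D1:**
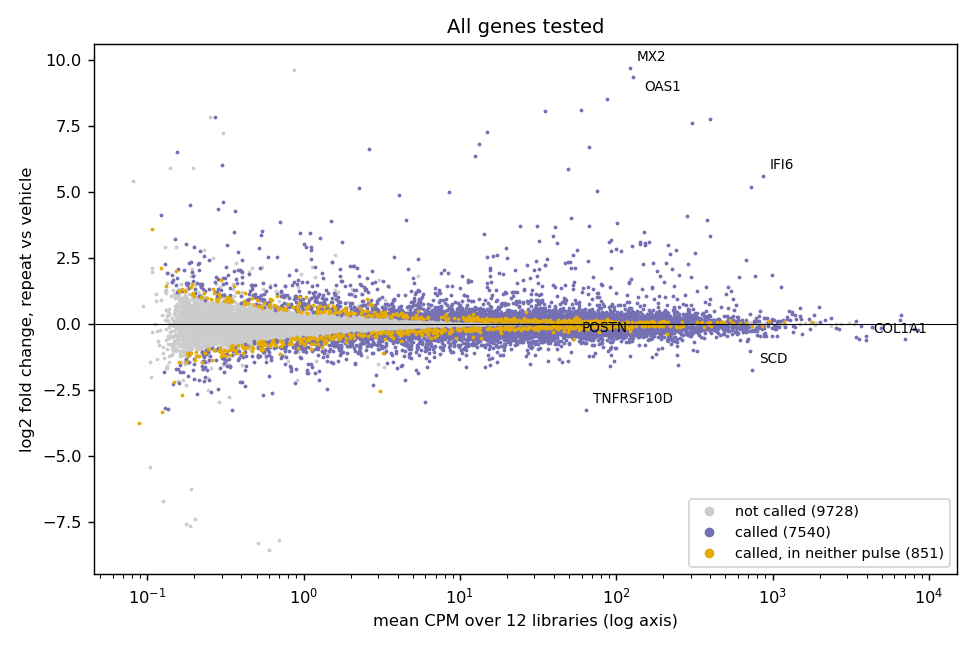
Each point is 1 of the 18119 genes tested, by its mean CPM over 12 libraries (log axis) and its log2 fold change between repeat and vehicle. Grey genes were not called, purple genes were called, and the 851 yellow genes were called here but in neither single pulse. MX2 and OAS1 stand highest among the called genes at 9.70 and 9.37, and the yellow genes lie close to the horizontal line except at low CPM.

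The receptor and kinase genes differed little from vehicle, while STAT2, on which they act, stood higher. In this list 16 of 16 members were tested, 6 rose and 4 fell, with a median log2 fold change of 0.05. STAT2, the partner of IRF9, had 63.1, 57.4 and 57.05 CPM in the vehicle libraries and 178, 169.5 and 181 CPM in the repeat libraries. The lowest repeat library stood far above the highest vehicle library, and the log2 fold change was 1.57 ± 0.03 (edgeR quasi-likelihood adjusted p = 5.14e-19). JAK1 fell by 0.33 on the log2 scale, from 261 to 208 CPM on average, a call that was lost on TPM values. IFNAR1 differed by -0.11 ± 0.03, and this difference turned to 0.03 on log2(TPM + 0.5), so its direction depends on the table. IFNAR2 (-0.06) and TYK2 (0.03) did not pass the test. On TPM values 3 members of the list rose and 0 fell. Of 11 interferon genes 9 had no count in any repeat or vehicle library, and the 1 that was tested, IFNE, was not called.

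Among the interferon regulatory factors IRF7 and IRF9 had the larger rises. Of 8 tested members 5 rose and 1 fell, and on TPM values 3 rose and 0 fell. IRF9, the DNA-binding partner of STAT2, had 16.1, 16.0 and 15.2 CPM in vehicle and 78.2, 78.0 and 78.6 CPM in repeat. The replicates of each group lay within 1 CPM of one another, and the log2 fold change was 2.31 ± 0.03 (edgeR quasi-likelihood adjusted p = 1.17e-28). IRF7, which amplifies interferon production, rose by 3.33 ± 0.05 to 69.6 CPM. IRF1 rose by 0.60 ± 0.04.

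Brakes on the pathway did not move as a block. Of 17 tested members 8 rose and 7 fell, with a median of 0.04. USP18, which removes ISG15 from proteins and blocks signalling at IFNAR2, had 1.77, 0.792 and 1.19 CPM in vehicle, 127, 126 and 126 CPM in acute, 2.31, 2.29 and 2.89 CPM in recovery and 137, 139 and 133 CPM in repeat. All repeat libraries were above all others, and the log2 fold change against vehicle was 6.71 ± 0.09 (edgeR quasi-likelihood adjusted p = 2.45e-15). The difference between repeat and acute, 0.11 ± 0.05, did not pass the test (edgeR quasi-likelihood adjusted p = 0.238). USP41 is a near-identical copy, so its value of 6.63 is uncertain. SOCS1, an inhibitor of JAK kinases, rose by 0.92 ± 0.11 to 4.82 CPM, whereas SOCS3 differed by 0.04 ± 0.03 and was not called. Named after their values were seen, PIAS1 (-0.09), PIAS2 (-0.17), PIAS3 (-0.20) and PIAS4 (-0.19), which repress STAT activity, fell slightly. UBA7 and HERC5, enzymes that attach ISG15, rose by 2.54 and 2.37.

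All 55 genes of the antiviral effector list rose, by 0.83 to 9.70 on the log2 scale, with a median of 3.00. MX2, a GTPase that restricts viruses at the nucleus, is at chr21:41361999-41409393 on GRCh38. It had 0.508, 0.158 and 0.238 CPM in the vehicle libraries, 217, 216 and 225 CPM in acute, 3.21, 1.82 and 2.15 CPM in recovery and 271, 261 and 266 CPM in repeat. No 2 groups overlapped, and the order was vehicle, recovery, acute, repeat. The log2 fold change of repeat over vehicle was 9.70 ± 0.13 (edgeR quasi-likelihood adjusted p = 1.2e-12). OAS1, a sensor of double-stranded RNA that activates RNase L, had 0.578, 0.181 and 0.498 CPM in vehicle, 217, 218 and 222 CPM in acute, 2.11, 1.99 and 2.03 CPM in recovery and 290.0, 289 and 287 CPM in repeat. Repeat again lay above acute without overlap, by 0.40 ± 0.03 (edgeR quasi-likelihood adjusted p = 9.79e-10), and above vehicle by 9.37 ± 0.06. RSAD2, which makes a chain-terminating nucleotide, showed the largest gap to acute in the list. Its repeat libraries held 31.1, 30.1 and 31.2 CPM, against 16.6, 15.1 and 18.0 CPM in acute, 2.53, 1.69 and 2.34 CPM in recovery and 0.420, 0.317 and 0.368 CPM in vehicle. The difference was 0.89 ± 0.06 from acute (edgeR quasi-likelihood adjusted p = 2.64e-09) and 6.36 ± 0.12 from vehicle. CMPK2, its neighbour on chromosome 2 and a nucleotide kinase, differed by 0.52 ± 0.05 from acute and by 6.83 ± 0.10 from vehicle.

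For most other members the test did not separate repeat from acute. IFI6, an antiviral gene of the endoplasmic reticulum and mitochondria, had 37.2, 33.8 and 34.7 CPM in vehicle, 1693, 1655 and 1667 CPM in acute and 1691, 1794 and 1643 CPM in repeat. Repeat and acute overlapped, with a difference of 0.03 ± 0.03, while the log2 fold change over vehicle was 5.60 ± 0.04 (edgeR quasi-likelihood adjusted p = 1.67e-21). MX1 (rise 7.78), IFI44L (8.53), BST2 (8.10), IFI27 (8.06), IFITM1 (5.87) and ISG15 (3.93) were not called between repeat and acute either. Across the list, 9 members were called above acute and 3 below it, and 43 were not called. Of all genes tested, 1.77% were called above acute and 2.43% below. Together the 55 genes took 0.205%, 0.200% and 0.199% of all counts in vehicle and 1.61%, 1.59% and 1.58% in repeat. The groups did not overlap, with a difference of 1.39 percentage points (exact permutation p = 0.1, two-sided, the smallest that 3 against 3 can give). Acute libraries averaged 1.57% ± 0.014 and recovery libraries 0.230% ± 0.0031 (SD, n = 3 each).

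**Figure D2:**
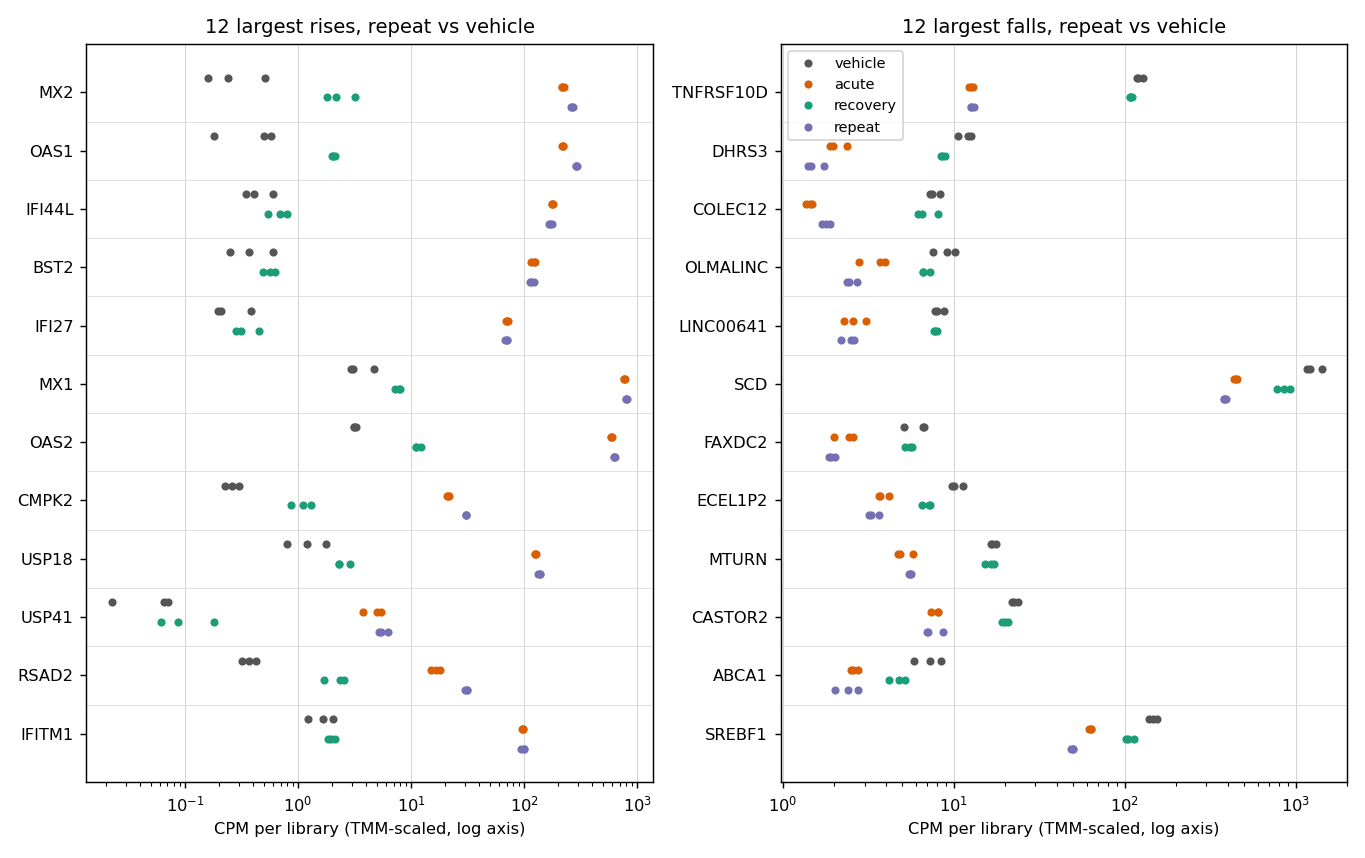
Points are single libraries, placed by CPM on a log axis, for the 12 genes with the largest rise (left) and the 12 with the largest fall (right) in repeat against vehicle. Recovery lies nearer to vehicle and acute nearer to repeat. Genes with repeat to the right of acute include MX2, OAS1, USP18, CMPK2 and RSAD2.

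Sensors of foreign nucleic acid stood higher as well, 15 of 21 tested members up and 2 down, with a median of 0.82. IFIH1, which detects long double-stranded RNA, rose by 4.02 ± 0.07 to 97.2 CPM. RIGI, which detects RNA with a 5′ triphosphate, rose by 3.10 ± 0.05. SAMHD1, which depletes nucleotides, rose by 2.65 ± 0.03, from 59.8 to 374 CPM. None of these 3 was called between repeat and acute.

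Every one of the 22 genes for MHC class I presentation rose, with a median of 1.251. HLA-F, a nonclassical class I gene, had 3.00, 2.31 and 2.36 CPM in vehicle, 21.6, 20.5 and 23.5 CPM in acute, 4.48, 5.48 and 4.74 CPM in recovery and 28.8, 27.5 and 26.7 CPM in repeat. Its repeat libraries were the highest, 3.42 ± 0.08 over vehicle (edgeR quasi-likelihood adjusted p = 1.98e-21) and 0.34 ± 0.06 over acute. PSMB9, a subunit of the immunoproteasome that cuts peptides for display, had 7.32, 6.49 and 6.86 CPM in vehicle, 50.6, 49.8 and 51.6 CPM in acute, 9.03, 9.55 and 9.37 CPM in recovery and 62.3, 62.2 and 60.3 CPM in repeat. Here too repeat exceeded acute without overlap, by 0.28 ± 0.03 (edgeR quasi-likelihood adjusted p = 5.18e-06), and vehicle by 3.15 ± 0.04. TAP1 and TAP2, which carry peptides into the endoplasmic reticulum, rose by 2.98 and 2.10. B2M, the light chain of class I molecules, rose by 1.40 ± 0.02 to 1643 CPM, and HLA-B by 1.86 ± 0.03. Reads of HLA genes can be shared among family members, so single HLA values are uncertain. Class II genes were sparse, with 9 of 15 tested, 3 higher and 1 lower. The share called, 44.4%, was near the 46.3% of all genes tested.

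Secreted and cell-autonomous defence genes rose in most cases. Of 24 tested cytokine, chemokine and NF-kB feedback genes 21 rose and 1 fell, with a median of 0.89, and 15 rose on TPM values. CXCL8, a chemokine for neutrophils, had 3.24, 2.90 and 4.18 CPM in vehicle, 9.40, 9.77 and 10.2 CPM in acute, 3.54, 4.09 and 4.20 CPM in recovery and 13.9, 12.7 and 13.1 CPM in repeat. Repeat lay above all other groups, 1.95 ± 0.09 over vehicle (edgeR quasi-likelihood adjusted p = 8.46e-16) and 0.44 ± 0.08 over acute. CXCL1, of the same family, rose by 1.84 ± 0.17 at a low level of 2.67 CPM. Among guanylate-binding proteins and apolipoproteins L, 8 of 9 rose, including GBP1 (2.12) and APOL1 (2.13). Of 12 complement genes 7 rose and 1 fell. C1S and C1R, the proteases of the first complement component, rose by 1.59 and 1.19, and both were lower in recovery than in vehicle, by 0.40 and 0.42. C1R also fell short of acute by 0.14 (edgeR quasi-likelihood adjusted p = 0.0126).

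Of 26 tested genes of cell death 18 rose and 4 fell, with a median of 0.32, and on TPM values 12 rose and 1 fell. TNFRSF10D, of this list, had the largest fall by the naming rule. It encodes a decoy receptor that binds the death ligand TRAIL without a complete death domain. The gene had 117, 119 and 128 CPM in vehicle, 107, 108 and 109.9 CPM in recovery, 12.9, 12.5 and 12.2 CPM in acute and 12.6, 12.5 and 13.1 CPM in repeat. Acute and repeat overlapped and stood far below vehicle, with a log2 fold change of -3.25 ± 0.04 for repeat (edgeR quasi-likelihood adjusted p = 4.5e-31). TRAIL itself, TNFSF10, rose by 1.48 ± 0.18 to 3.08 CPM. TNFRSF10A, a signalling receptor of TRAIL named after its value was seen, rose by 0.92 ± 0.10. MLKL, the executor of necroptosis, rose by 1.61 ± 0.06. PMAIP1, which encodes the BCL2-family killer NOXA, rose by 1.48 ± 0.03 and stood 0.18 ± 0.03 above acute.

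Lipid synthesis genes fell together. Of 24 genes for cholesterol synthesis and uptake 21 fell and 0 rose by edgeR, with a median of -0.47 (0 higher also at an unadjusted p under 0.05 and by DESeq2). Of 16 genes for fatty acid synthesis and storage 12 fell and 2 rose, with a median of -0.49. SREBF1, the transcription factor that drives fatty acid synthesis, had 154, 146 and 139 CPM in vehicle, 63.3, 61.9 and 63.5 CPM in acute, 113, 101 and 104 CPM in recovery and 49.9, 49.5 and 48.3 CPM in repeat. The 4 groups did not overlap and repeat was lowest, -1.57 ± 0.04 against vehicle (edgeR quasi-likelihood adjusted p = 7.48e-15) and -0.35 ± 0.04 against acute (edgeR quasi-likelihood adjusted p = 0.00024). SCD, which desaturates fatty acids, had 1418, 1210.0 and 1161 CPM in vehicle and 391, 378 and 378 CPM in repeat. All repeat libraries were below all vehicle libraries, with a log2 fold change of -1.73 ± 0.08 (edgeR quasi-likelihood adjusted p = 1.68e-07). Its difference from acute, -0.22 ± 0.08, was not called. FADS2 (-1.53) and FASN (-1.02), a desaturase and the fatty acid synthase, and INSIG1 (-1.26) and LSS (-0.92) of the cholesterol list fell too. Over all genes tested, recovery differed from vehicle in 1076 (5.94%), 549 higher (3.03%) and 527 lower (2.91%). In the cholesterol list 15 of 24 genes were called lower in recovery than in vehicle and 0 higher. In the fatty acid list 10 of 16 were lower and 0 higher. The differences were -0.47 for SREBF1, -0.57 for SCD and -0.40 for INSIG1. ABCA1, which exports cholesterol from cells, differed from vehicle by -1.58 ± 0.13.

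Outside these lists the leading falls were of varied kind. DHRS3, a retinal reductase, had 12.6, 10.6 and 12.1 CPM in vehicle and 1.75, 1.46 and 1.40 CPM in repeat. Its repeat libraries were all lower than the acute ones, though the difference of -0.42 ± 0.13 was not called (edgeR quasi-likelihood adjusted p = 0.0522). The fall from vehicle was -2.94 ± 0.10. COLEC12, a scavenger receptor, fell by 2.11. The long noncoding RNA OLMALINC, next to SCD on chromosome 10, fell by 1.84 and stood -0.48 ± 0.13 from acute. LINC00641, FAXDC2, the pseudogene ECEL1P2, MTURN and CASTOR2 fell by 1.60 to 1.75. On the scale of CPM, which favours abundant genes, the largest gains included those of IFI6, VIM, OAS3, HLA-B and B2M. VIM, the intermediate filament of mesenchymal cells, had 5572, 5831 and 5807 CPM in vehicle and 7364, 7492 and 7281 CPM in repeat. The groups were apart, but the log2 fold change was only 0.36 ± 0.02.

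Cell cycle genes showed small falls. Of 28 genes of G2 phase and mitosis 25 fell and 0 rose by edgeR, with a median of -0.21 (0 higher also at an unadjusted p under 0.05 and by DESeq2). TOP2A, a topoisomerase of dividing cells, had 614, 628 and 619 CPM in vehicle and 470.2, 473 and 481 CPM in repeat, so the groups did not overlap and the fall was -0.39 ± 0.02 (edgeR quasi-likelihood adjusted p = 1.25e-14). KIF20A, a mitotic kinesin, fell by 0.46, and MKI67, the Ki-67 gene, by 0.32. Between repeat and acute 1 of the 28 was called higher, 1 lower and 26 not, with a median of 0.02. Of all genes tested, 4.2% were called in that comparison. MKI67 was lower than in acute, by 0.13 (edgeR quasi-likelihood adjusted p = 0.0328), and BIRC5, an inhibitor of apoptosis named after its value was seen, was higher, by 0.08 (edgeR quasi-likelihood adjusted p = 0.036). Genes of G1/S and DNA replication were mixed, 5 higher and 11 lower of 25, and 3 and 7 on TPM values. CCND1, cyclin D1, rose from 250.3, 267 and 281 CPM to 510.2, 508 and 517 CPM, a log2 fold change of 0.94 ± 0.04.

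Among the 33 gene lists, the collagen and matrix list had the largest share of members called between repeat and acute. Of 28 tested collagen and matrix genes 10 rose and 16 fell against vehicle, with a median of -0.21. Against acute, 1 was called higher and 18 lower, with a median of -0.15. The background for that comparison was 761 of 18119 genes (4.2%), 321 higher (1.77%) and 440 lower (2.43%). Recovery was already called lower than vehicle in 18 of the 28 and higher in 3, with a median of -0.19. Over all genes tested, 2.91% were lower and 3.03% higher there. Against recovery, repeat was higher in 13 and lower in 12, with a median of 0.04, beside 21.1% and 20.5% of all genes. COL1A1, the main collagen I chain, had 4674, 4854 and 4930.0 CPM in vehicle, 4209, 4196 and 4125 CPM in recovery, 3613, 3828 and 3816 CPM in acute and 3301, 3185 and 3078 CPM in repeat. Each group was below the one before it without overlap. Repeat differed from vehicle by -0.60 ± 0.03 (edgeR quasi-likelihood adjusted p = 1.36e-14), from acute by -0.24 ± 0.03 and from recovery by -0.39 ± 0.03. COL12A1, a fibril-associated collagen, differed from vehicle by -0.97 ± 0.04 and from acute by -0.28 ± 0.04. LUM and DCN, small proteoglycans of collagen fibrils, fell by 1.16 and 0.87. THBS1 (0.48), TNC (0.47), COL6A1 (0.44) and COL6A3 (0.40), named after their values were seen, rose, so the list did not move one way.

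In the list of matrix proteases and inhibitors 11 of 16 rose and 4 fell against vehicle. Against acute 3 were called higher, 2 lower and 11 not, beside 1.77% higher and 2.43% lower over all genes tested. PLAU, the urokinase gene, had 14.1, 14.0 and 17.0 CPM in vehicle, 25.4, 26.4 and 25.0 CPM in acute, 22.4, 24.1 and 24.3 CPM in recovery and 39.9, 37.0 and 37.8 CPM in repeat. Repeat was above every other group. Its log2 fold change was 1.35 ± 0.06 over vehicle (edgeR quasi-likelihood adjusted p = 9.42e-15) and 0.58 ± 0.05 over acute (edgeR quasi-likelihood adjusted p = 8.66e-07), while acute stood 0.77 ± 0.06 and recovery 0.65 ± 0.06 over vehicle. TGFB2, a ligand of the TGF-beta receptors, had 109, 104 and 95.5 CPM in vehicle, 57.6, 61.98 and 61.4 CPM in acute, 79.6, 77.4 and 69.3 CPM in recovery and 44.8, 44.7 and 44.8 CPM in repeat. It ran in the opposite direction, with repeat lowest, -1.20 ± 0.06 from vehicle and -0.43 ± 0.06 from acute (edgeR quasi-likelihood adjusted p = 0.0049). Of 23 TGF-beta and YAP target genes 16 rose and 6 fell against vehicle, while against acute 6 were called lower and the other 17 were not called. The rises were led by ANKRD1, a mechanically induced gene (2.12), and INHBA, an activin subunit (1.40). ID1, a target of BMP signalling, rose by 1.18 ± 0.10 and was higher in recovery too, by 0.75 ± 0.10.

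Insulin-like growth factor binding proteins and Wnt modulators had no common direction, with 7 higher and 5 lower of 16 and a median of -0.01 that changed sign among the alternative fits. SFRP1, a secreted Wnt antagonist, had 62.5, 60.2 and 62.8 CPM in vehicle, 66.7, 64.03 and 66.6 CPM in acute, 105, 106 and 115 CPM in recovery and 97.8, 101 and 99.1 CPM in repeat. The libraries taken late, recovery and repeat, were the high ones. Repeat exceeded vehicle by 0.68 ± 0.03 (edgeR quasi-likelihood adjusted p = 1.12e-16), acute by 0.59 ± 0.03, and fell short of recovery (-0.13 ± 0.03). IGFBP6 rose by 0.74 ± 0.04, against 0.52 in acute and 0.39 in recovery. IGFBP5 differed by -1.03 ± 0.11 from vehicle and by -0.71 ± 0.11 from acute, although the call against vehicle was lost on TPM values. WNT5A fell by 0.60.

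Mitochondrially encoded RNA was lower after the regimen. The 37 mitochondrial genes took 5.72%, 5.44% and 5.76% of counts in vehicle and 4.59%, 4.55% and 4.38% in repeat. These groups did not overlap, with a difference of -1.13 percentage points (exact permutation p = 0.1, two-sided, the smallest possible). Acute averaged 4.70% ± 0.151 and recovery 5.64% ± 0.0594 (SD, n = 3 each). Of the 13 mitochondrial mRNAs 9 fell and 0 rose by edgeR (0 higher also at an unadjusted p under 0.05 and by DESeq2). MT-CO3, a subunit of cytochrome oxidase, had 4345, 4140.0 and 4325 CPM in vehicle and 2913, 2909 and 2823 CPM in repeat, all below vehicle, a fall of -0.57 ± 0.02 (edgeR quasi-likelihood adjusted p = 1.77e-18). MT-CYB fell by 0.48, MT-ATP6 by 0.47 and MT-CO1 by 0.21. MT-RNR2, the mitochondrial 16S ribosomal RNA, fell by 0.56 in these poly(A)-selected libraries. Nuclear genes of the respiratory chain did not follow, with 11 higher and 4 lower of 28 and a median of 0.03. Under upper quartile scaling 7 were higher and 6 lower. With TMM scaling 53.6% of them were called, near the 46.3% of all genes tested.

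Metabolic and stress lists differed in direction. For comparison, 23.4% of all genes tested were called higher and 22.9% lower. Of 24 glycolysis and hypoxia genes 16 fell and 3 rose, with a median of -0.10. CA9 (-1.63) and ALDOC (12.3 CPM in vehicle and 6.19 CPM in repeat), both hypoxia-responsive, fell, and HK2, a hexokinase, rose (0.61). Amino acid and endoplasmic reticulum stress genes were split 8 to 8 among 20, with a median of -0.03. Of 14 heat shock genes 9 rose and 1 fell, with a median of 0.15, and the risers included the chaperones DNAJA1 (0.50) and HSPA8 (0.25). Of 16 p53 target genes 4 rose and 6 fell, and their median of 0.0055 changed sign among the alternative fits. Of 22 ribosomal protein genes 11 fell and 1 rose, with a median of -0.06. The share called, 54.5%, was near the 46.3% of all genes tested.

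Targets of NRF2, the regulator of the antioxidant response, rose 7 times and fell 4 times among 15. Against acute 6 of the 15 were called higher and none lower, beside 1.77% and 2.43% of all genes tested. Recovery was already above vehicle in 5 of the 15 and below it in 0, beside 3.03% and 2.91% of all genes. Against recovery, repeat was higher in 7 and lower in 5, beside 21.1% and 20.5%. AKR1C1, an aldo-keto reductase, had 8.65, 7.40 and 8.49 CPM in vehicle, 10.2, 10.3 and 10.6 CPM in acute, 12.4, 13.8 and 13.6 CPM in recovery and 15.2, 15.0 and 15.4 CPM in repeat. Repeat was highest without overlap, 0.89 ± 0.06 over vehicle (edgeR quasi-likelihood adjusted p = 1.08e-12) and 0.56 ± 0.06 over acute. AKR1C2 differed by 0.97 ± 0.16 from vehicle and by 0.92 ± 0.17 from acute. AKR1C3 went the other way, -1.07 ± 0.19 from vehicle. These genes are close copies, and how reads were shared among them is not given in the sources used here.

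Cell type markers moved in part. Of 14 fibroblast markers 11 fell and 2 rose against vehicle, and their summed level in repeat was 12740 to 13080 CPM. VIM, which rose, was the largest part of this sum, so the sum does not show how most members moved. Against acute 2 were called higher and 6 lower, beside 1.77% and 2.43% of all genes. Recovery against vehicle had 1 higher and 9 lower, beside 3.03% and 2.91%. In bulk RNA, fewer cells of a type and less RNA per cell cannot be told apart. FAP, a membrane protease of activated fibroblasts, fell by 0.77, and PDGFRB, a growth factor receptor, fell by 0.72 and stood 0.14 below acute. Several of these markers are matrix genes described above, and the part of cell makeup in those results was not tested. Of the 10 measured cardiomyocyte markers 5 rose and 3 fell. All 26 markers of that list summed to 255 to 263 CPM in vehicle and 238 to 246 CPM in repeat. ACTN2, the sarcomeric alpha-actinin gene, had 1.31, 1.54 and 1.58 CPM in vehicle, 1.99, 1.82 and 1.96 CPM in acute, 3.43, 2.53 and 2.85 CPM in recovery and 3.92, 3.35 and 3.48 CPM in repeat. Recovery and repeat were the high groups, and repeat exceeded vehicle by 1.28 ± 0.14 (edgeR quasi-likelihood adjusted p = 7.79e-09) and acute by 0.89 ± 0.13. NPPB, which encodes brain natriuretic peptide, was low throughout, at 0.631, 0.407 and 0.520 CPM in vehicle and 0.276, 0.259 and 0.185 CPM in repeat, a difference of -1.11 ± 0.31. Of 9 smooth muscle markers 3 rose and 5 fell, and their summed level was 817 to 851 CPM in vehicle and 872 to 893 CPM in repeat. All 10 endothelial markers summed to 13.5 to 14.7 CPM in vehicle and 12.5 to 14.1 CPM in repeat, with 1 higher and 2 lower of the 6 tested. Of 12 immune markers 4 were measured, with 1 higher and 1 lower than in vehicle. The lower one was CD14, a call that was lost on TPM values. CD3E, CD3D, MS4A1, NKG7 and TYROBP were at 0. The summed level of all 12 was 96.3 to 97.4 CPM in vehicle and 237 to 247 CPM in repeat. CD68, a lysosomal protein gene, made up nearly all of it, with 93.2, 94.0 and 93.5 CPM in vehicle and 244, 242 and 234 CPM in repeat.

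**Figure D3:**
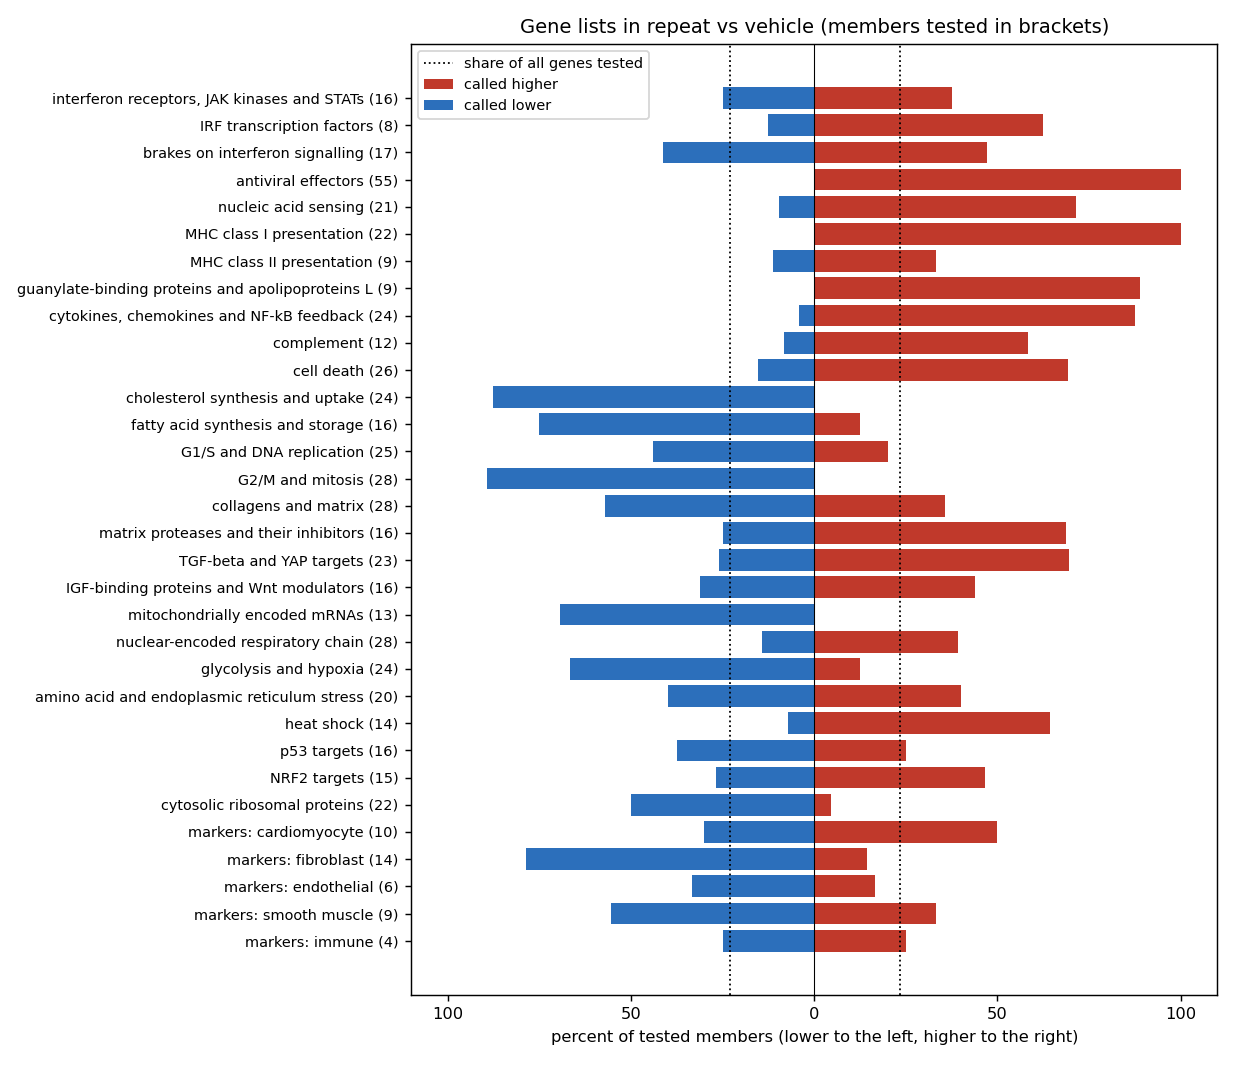
Bars give, for each gene list with at least 4 tested members (number in brackets), the percent of members called higher (right) and lower (left) in repeat than in vehicle. Dotted lines mark the shares over all genes tested, 23.4% higher and 22.9% lower. The antiviral and MHC class I bars reach 100% on the right, and the cholesterol and mitosis bars have no right side.

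A further class comprised genes called at the end of the regimen but in neither pulse on its own. They were called in repeat against vehicle, but neither in acute against vehicle (the first pulse, 43.8% of genes called) nor in repeat against recovery (the later pulse, 41.6% called). The class numbered 851 (4.7%), 397 higher (2.19%) and 454 lower (2.51%). All 3 calls chose them, and the comparisons share libraries, so what follows describes them. Their changes were small, with a median size of 0.22 and a range of 0.05 to 3.75, and their median levels were 14.6 CPM for the higher and 7.66 CPM for the lower genes, against 34.7 and 32.6 CPM for all genes called higher and lower. For the 397 higher genes the median log2 fold change was 0.18 in repeat against vehicle, 0.08 in acute against vehicle, 0.10 in recovery against vehicle and 0.08 in repeat against recovery. For the 454 lower genes the same medians were -0.26, -0.09, -0.15 and -0.10. All of these medians lay on the side of the total, so a missing call in a pulse does not show that a gene stayed level in it. The class depended on the tool. DESeq2 kept the repeat call in the same direction for 399 of the 851 (46.9%), and log2(TPM + 0.5) for 201 (23.6%).

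POSTN belongs to this class. It encodes periostin, a matrix protein of fibroblasts in the injured heart, and lies at chr13:37562583-37598844 on GRCh38. Its libraries held 67.6, 60.5 and 67.4 CPM in vehicle, 63.4, 63.6 and 64.5 CPM in acute, 44.3, 40.7 and 43.7 CPM in recovery and 43.6, 42.5 and 45.7 CPM in repeat. Recovery and repeat overlapped and stood below vehicle and acute, which also overlapped. The log2 fold change was -0.57 ± 0.04 in repeat (edgeR quasi-likelihood adjusted p = 2.66e-11), -0.60 ± 0.04 in recovery and -0.03 ± 0.04 in acute, all against vehicle, and -0.54 ± 0.04 in repeat against acute (edgeR quasi-likelihood adjusted p = 1.68e-08). The 250 bases before its RefSeq start site (GRCh38.p14) are shown with their 1 match to the core of the interferon-stimulated response element in capitals. A match to the gamma-activated site described below is left in lower case.
POSTN, chr13:37598769-37599018, minus strand: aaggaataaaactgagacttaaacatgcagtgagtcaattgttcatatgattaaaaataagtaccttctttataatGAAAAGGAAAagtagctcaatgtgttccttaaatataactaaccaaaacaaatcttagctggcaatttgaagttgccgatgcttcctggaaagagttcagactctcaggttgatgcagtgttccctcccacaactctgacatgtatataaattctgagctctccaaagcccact

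LYPD6B and ACTA2 were also lower in both late groups. LYPD6B, a membrane-anchored protein of the LY6 family, had 8.32, 8.03 and 8.51 CPM in vehicle, 7.91, 8.61 and 7.87 CPM in acute, 5.92, 5.35 and 5.50 CPM in recovery and 6.02, 5.62 and 5.93 CPM in repeat. Both late groups were below both early ones, with -0.50 ± 0.07 for repeat against vehicle (edgeR quasi-likelihood adjusted p = 1.25e-06). ACTA2, the smooth muscle actin gene that marks myofibroblasts, had 15.0, 14.9 and 12.7 CPM in vehicle, 12.6, 12.6 and 14.0 CPM in acute, 10.8, 10.9 and 10.9 CPM in recovery and 9.70, 10.3 and 10.3 CPM in repeat. Repeat was lowest, -0.50 ± 0.06 from vehicle (edgeR quasi-likelihood adjusted p = 1.74e-07) and -0.37 ± 0.06 from acute.

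In the rising direction PAG1, an adaptor that restrains Src-family kinases, had 4.40, 4.48 and 4.05 CPM in vehicle, 5.39, 4.76 and 4.64 CPM in acute, 6.32, 5.96 and 5.88 CPM in recovery and 6.11, 6.17 and 6.20 CPM in repeat. Its log2 fold change over vehicle was 0.52 ± 0.09 (edgeR quasi-likelihood adjusted p = 1.06e-05). LAMA5, a laminin chain of basement membranes, had 19.9, 21.5 and 24.7 CPM in vehicle and 32.4, 28.1 and 29.4 CPM in repeat, apart from each other, with 0.45 ± 0.08 in repeat and 0.41 ± 0.08 in recovery. BCL2, which protects cells from apoptosis, rose by 0.38 ± 0.09 (edgeR quasi-likelihood adjusted p = 0.00218), with 0.20 in acute and 0.19 in recovery. SSTR1, a somatostatin receptor, rose by 0.31 ± 0.06. Of the 20 genes named for this class, 9 kept the call and the class on TPM values: LAMA5, SSTR1, RPS26P6, POSTN, LINC03031, LYPD6B, ACTA2, MIR503HG and GSDMB. With any 1 library left out, between 14 and 19 of the 20 stayed in the class, the fewest without vehicle 3. PAG1, SSTR1, NAT1, POSTN, STAG3L5P, LYPD6B and INPP5J stayed in it throughout, and the other 13 left it without at least 1 library. LAMA5 left it without recovery 1, repeat 1 or vehicle 3, ACTA2 without acute 3 or vehicle 3, BCL2 without recovery 2 or repeat 2, and GSDMB without recovery 3 or vehicle 3. RPS26P6 left it without vehicle 2 and MIR503HG without recovery 3. The call against vehicle itself was lost in 3 of the 20. LINC03031 lost its call without any 1 of repeat 1, repeat 3 or the 3 vehicle libraries (edgeR quasi-likelihood adjusted p = 0.0523 to 0.0824). ZNF688 lost it without repeat 1, repeat 2, vehicle 1 or vehicle 3 (edgeR quasi-likelihood adjusted p = 0.0575 to 0.126), and MSH5-SAPCD1 without acute 1, acute 2, recovery 1, repeat 2, repeat 3, vehicle 2 or vehicle 3 (edgeR quasi-likelihood adjusted p = 0.0545 to 0.132). STAG3L5P and RPS26P6 are pseudogenes and MSH5-SAPCD1 is a readthrough transcript, so reads of related genes may be counted there.

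**Figure D4:**
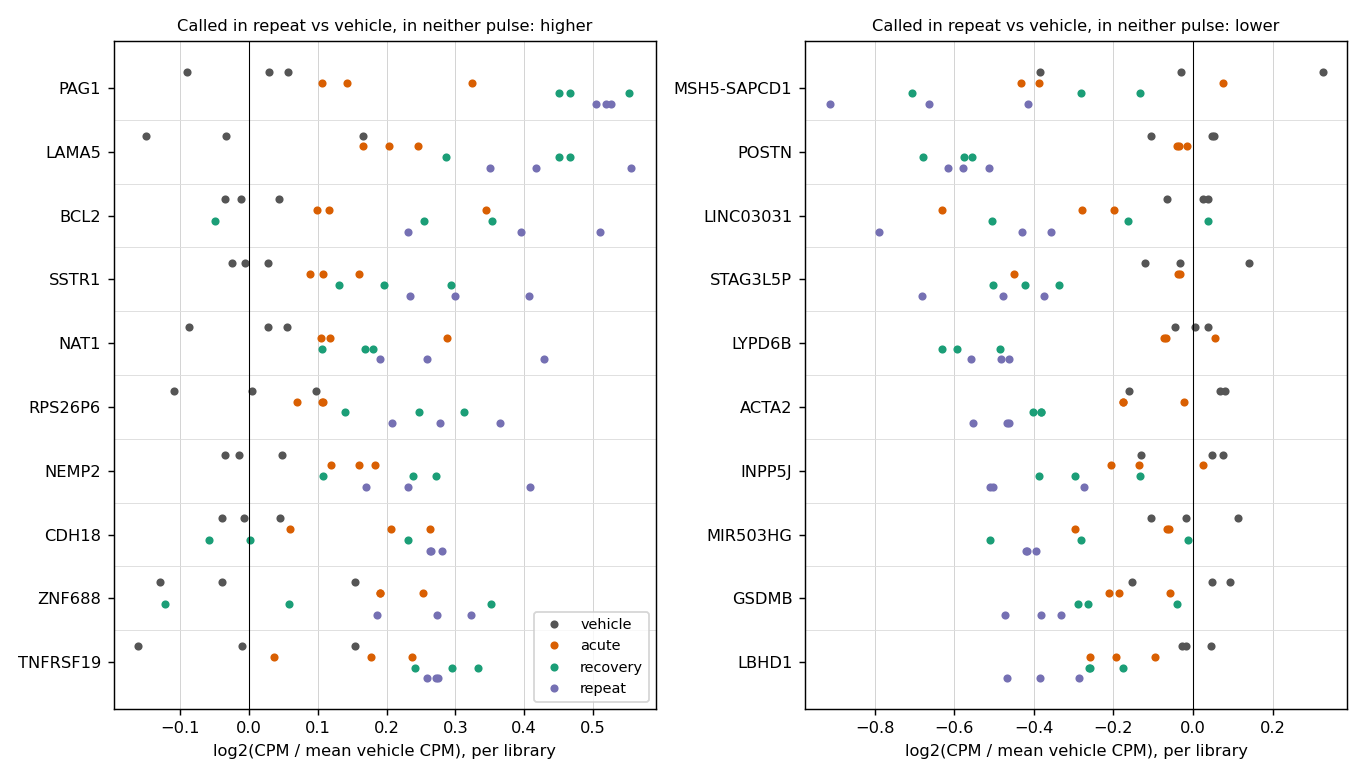
Points are single libraries of the 20 genes named for the class called in neither pulse, as log2 of CPM over the mean vehicle CPM, with the vertical line at 0. The naming rule required that repeat libraries lie apart from vehicle libraries, so this separation holds for all 20 genes by selection. Recovery lies beside repeat for POSTN and LYPD6B, and acute stays near 0 for those genes.

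The share of promoters holding interferon-response letters was higher among genes with large rises. The core of the interferon-stimulated response element (GAAA, any 2 bases, GAAA), searched on both strands, occurred in 3.65% of all 27305 RefSeq windows and in 2.93% of the 11825 windows of tested genes. Its share was 47.6% (10 of 21) for called genes that rose by at least 4 on the log2 scale, 47.1% (33 of 70) between 2 and 4, 14.9% (26 of 174) between 1 and 2, and 3.14% for smaller rises. Genes not called had 2.33%, genes that fell by less than 1 had 1.75%, and genes that fell by 1 or more had 2.96%. The gamma-activated site (TTC, any 3 bases, GAA), which pairs of STAT proteins bind and whose matches may overlap the former, was searched in the same way. It occurred in 7.88% of all windows, in 6.43% of those of tested genes and in 11.3% of those of genes at least 2-fold higher. Among genes called in neither pulse the shares were 2.65% (15 of 566) and 6.18%. A match describes letters in a window and not binding.

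**Figure D5:**
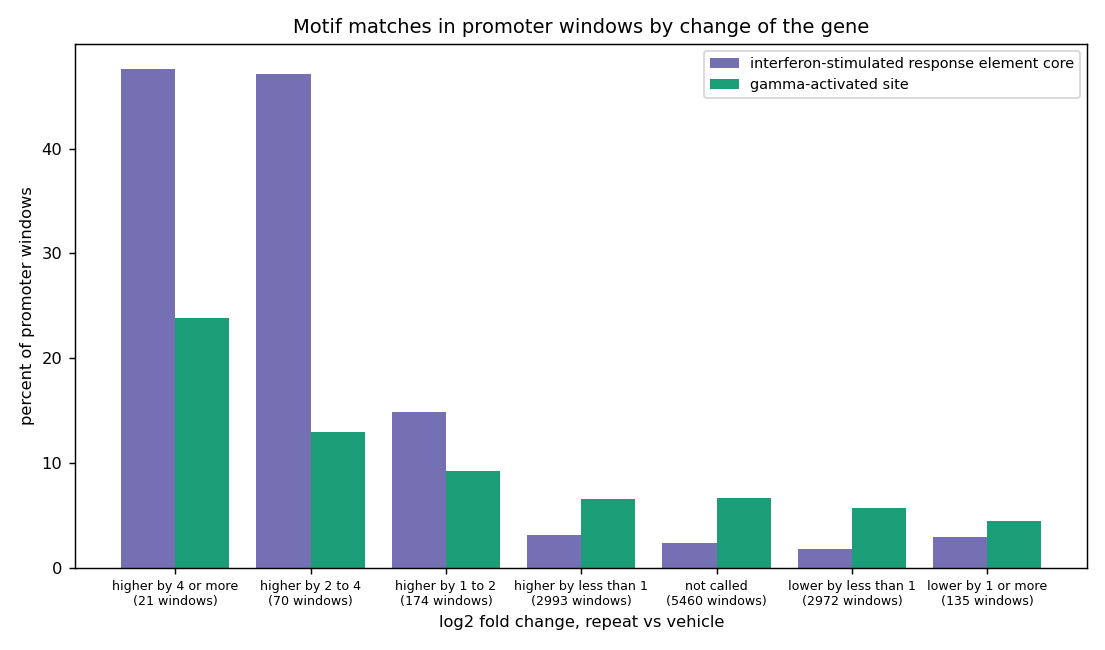
Bars give the percent of RefSeq promoter windows with a match to the interferon-stimulated response element core (purple) or the gamma-activated site (green), by the log2 fold change of the gene in repeat against vehicle. The number of windows stands under each pair, and the purple bars fall from 47.6% for the largest rises to 1.75% for small falls.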

How the data were processed

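Polyadenylated RNA of 12 cultures was sequenced with a stranded kit, per the labels' protocols. The deposited count table holds estimated counts (25.49% of nonzero values are not whole), which were rounded, and the deposited TPM table served for alternatives. The submitters' processing notes name Trim Galore 0.6.10, cutadapt 4.3, STAR 2.7.11a, featureCounts 2.0.3, Picard 2.27.5 and edgeR, with GRCh38.p13 and Gencode 41. The design text names DESeq2 instead. Use of strand in counting is not given in the sources used here. Symbols and coordinates came from GENCODE v44, with 60463 of 60649 identifiers matched.

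All 12 libraries entered 1 edgeR 4.0.16 quasi-likelihood fit in R 4.3.3, with TMM scaling, the filterByExpr filter and Benjamini-Hochberg adjustment over 18119 genes, two-sided at 0.05. Values after ± are standard errors of log2 fold changes unless given as SD. The script was tested on simulated data. Alternatives used limma 3.58.1, DESeq2 1.42.0, other scalings and filters, log2(TPM + 0.5) or (TPM + 0.1), an offset for the gene length implied by both tables, a replicate block, and each library left out.

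Named genes were called, did not overlap between repeat and vehicle, and had at least 5 CPM in the higher group. They were the 12 largest rises and falls by fold, the 6 by CPM, the 10 each way among genes called in neither pulse, up to 4 called members of each list (no CPM minimum), and 16 set genes. Genes outside this rule are said to be so, apart from markers listed at 0, and a few genes that the rule names are not reported here. The comparison, lists and rules were chosen with earlier results of these data known.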

Additional observations from a re-analysis of the deposited data

How the results depend on the processing

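The 8391 genes called became 4667 on log2(TPM + 0.1), 4663 on log2(TPM + 0.5) and 4778 with the length offset. Genes called higher became 2566, 2564 and 2468, and genes called lower 2101, 2099 and 2310. The implied gene length varied between libraries with a median CV of 4.35% over 9015 genes, and the cause of the fewer calls was not tested. Genes changed at least 2-fold numbered 410 with a minimum of 1 CPM, where fewer genes were tested, and 283 on log2(TPM + 0.5). Genes beyond 1.5-fold numbered 442 with the length offset. The class called in neither pulse would hold 3994 genes if a pulse were judged by a log2 fold change under 0.25. Of its 851 genes, 162 to 174 stayed in the class on TPM values or with the length offset and 382 by DESeq2. The antiviral share differed by 2.41 percentage points of TPM and the mitochondrial share by -2.92. IFNAR1 turned from -0.11 to 0.0282 on log2(TPM + 0.1), 0.0277 on log2(TPM + 0.5) and 0.0168 with the length offset. Of 172 named and tested genes, 137 were tested in all 24 alternative fits and kept their call in each, and 3 more kept it in the fits that tested them.

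With 1 library left out, calls ranged from 7455 to 8403, higher calls from 3761 to 4232, lower calls from 3694 to 4188, genes changed at least 2-fold from 623 to 727, genes beyond 1.5-fold from 587 to 667, and genes called in neither pulse from 629 to 1047. The antiviral share difference ranged from 1.39 to 1.40 and the mitochondrial one from -1.23 to -1.07. DESeq2 called 7237 genes. Upper quartile scaling gave 3743 higher and 4633 lower.

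Same-numbered vehicle and repeat libraries correlated by 0.025, 0.043 and 0.055 in their deviations, so the numbers were not taken to pair them, although each correlated best with its own number. A replicate block gave 8409 calls, 849 of them in neither pulse, and 666 genes beyond 1.5-fold.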
